A study of Mus musculus with 12 samples.

Results

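Arc, Homer1, Nptx2, Rgs2, Ptgs2 and Rheb are genes that neurons switch on with activity and whose products act at or near the synapse. All probe sets of a mouse Affymetrix array that list 1 of these symbols alone were taken, which gave 11 probe sets for 6 of 12393 genes. The genes were selected on textbook knowledge of activity-regulated effectors and on intensities of these arrays after ischemia against sham, which were known from earlier results, so their values for ischemia against sham are given as a description, with calls only counted beside the share over the whole array and nothing read from them. The ischemia values of Nptx2 and Ptgs2 were known in both genotypes, so their genotype difference after ischemia and their response difference are also given as a description. Tests are given for the genotype in sham. For the other 4 genes they are also given for the genotype after ischemia and for the difference between the genotypes' responses. These comparisons share arrays with those used for the choice, so the choice could have moved them. The p-values take no account of that.

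The arrays measured total RNA of the hippocampal CA1 subfield of mice. One pair of groups was wild-type and the other SUMO-KD, a transgenic line in which SUMO, a small modifier that cells attach to proteins to change what they do, is knocked down. In each genotype 3 samples came from sham-operated mice and 3 from mice with 10 minutes of global cerebral ischemia and 3 hours of reperfusion. Every sample pooled the tissue of 2 brains, and the labels give neither what drives the transgene nor the animals' age. Values are linear intensities in arbitrary units, and a log2 difference is one of log2(intensity + 32), which understates changes of dim probe sets. Probe sets differ in how strongly they bind, so levels are compared between arrays and not between genes.

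Activity-regulated genes are transcribed when calcium entry and growth factor signals reach the nucleus through kinases that act on factors such as CREB, serum response factor and MEF2. Some of their products are transcription factors, and others, the effectors, act directly on synapses and dendrites. Arc moves to active dendrites, forms capsid-like particles and promotes the removal of AMPA-type glutamate receptors from the surface. Homer1 scaffolds link metabotropic glutamate receptors to calcium stores, and a short form made on activity uncouples them. Nptx2 (Narp) is a secreted pentraxin that clusters AMPA receptors. Rgs2 shuts off Gq-coupled receptor signalling, Rheb is the small GTPase that activates the growth kinase complex mTORC1, and Ptgs2 (COX-2) makes the precursor of prostaglandins. In CA1, whose pyramidal neurons are sensitive to ischemia, such genes are known to be induced by strong synaptic input and by seizures.

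RefSeq start-site sequences (build GRCm38.p6) were matched for 4 of the 6 genes, with 5 start sites. Arc and Nptx2 had no entry. The windows, from 250 bases before the start to 50 after it, were searched on both strands for TGACG, the core of the cyclic AMP response element bound by CREB. The sequences below show the members whose windows place the core near the start, as 150 bases before the start, 5′ to 3′ on the gene's strand, with the core in capitals. Homer1 start 1 lies at chr13:93303607-93303756 (plus strand), Rgs2 at chr1:144004150-144004299 (minus strand) and Ptgs2 at chr1:150099881-150100030 (plus strand). For Ptgs2, whose match lies after the start, a stretch at chr1:150100033-150100059 is added, with the reverse complement CGTCA in capitals.
Homer1 start 1: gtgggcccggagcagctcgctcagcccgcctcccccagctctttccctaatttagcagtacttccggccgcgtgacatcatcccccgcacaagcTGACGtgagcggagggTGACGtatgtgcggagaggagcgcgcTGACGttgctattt
Rgs2: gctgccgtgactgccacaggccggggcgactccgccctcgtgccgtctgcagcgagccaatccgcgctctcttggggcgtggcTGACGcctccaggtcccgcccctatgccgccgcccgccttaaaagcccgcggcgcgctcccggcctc
Ptgs2: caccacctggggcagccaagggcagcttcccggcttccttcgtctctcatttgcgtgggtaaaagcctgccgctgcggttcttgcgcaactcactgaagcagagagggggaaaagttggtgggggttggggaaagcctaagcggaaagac
Ptgs2 after the start: agtcaccactaCGTCAcgtggagtccg

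Homer1 start 1 held the core 3 times, at positions -56, -40 and -14 from the start. Rgs2 held it at -67 and, as its reverse complement, at -185. Ptgs2 held 1 match at 14 bases after the start, Rheb 1 match at -247, and the other Homer1 start none. Of all 32851 windows in the table, 20.8% held the core. The full element TGACGTCA (1.8% of windows), the AP-1 site TGANTCA (7.8%), the CArG box of serum response factor (1.6%) and TATAAA (13.6%) were found in none of the members' windows. A match describes the sequence alone.

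In wild-type mice, 7 of the 11 probe sets were called higher after ischemia (limma, adjusted p under 0.05), against 8.84% of all 22626 probe sets called higher and 6.51% called lower. Centring of arrays on their medians changed the split over all probe sets from 2000 higher and 1474 lower to 1667 and 1940. In SUMO-KD mice 4 of the 11 were called higher, against 5.20% of all probe sets higher and 3.20% lower. The rule for choosing the genes used these comparisons, so nothing is read from the counts. All 11 differences were above 0 in both genotypes, with a median log2 difference of 1.71 in wild-type and 0.82 in SUMO-KD, beside -0.02 and -0.01 over all probe sets. In bulk tissue, fewer cells of a type and less RNA per cell cannot be told apart.

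The arrays had median intensities of 141 to 162, and 22.4% to 28.6% of probe sets lay under an intensity of 32. The 5′ control for 18S ribosomal RNA read 4194 to 6528 on sham arrays and 1275 to 1660 on 5 ischemia arrays, while SUMO-KD ischemia replicate 2 read 4127. Of 6 CA1 pyramidal markers fixed as a list, 3 were measured (Wfs1, Pou3f1 and Man1a), and their group means lay between 882 and 2252, with none at 0. Their summed intensity was 5048 to 7227 in wild-type sham, 2806 to 3850 in SUMO-KD sham and after ischemia 3102 to 4066 in wild-type and 3063 to 3536 in SUMO-KD. These values are set beside the results they move with. The labels call the samples biological replicates without naming litters or surgery days, so p-values measure the spread between these pooled samples.

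Arc separated all 4 groups. Its single probe set, 1418687_at, for a gene at chr15:74669081-74672570, read 1280, 1118 and 838 in the 3 wild-type sham samples. The SUMO-KD sham samples read 424, 439 and 302, all below the lowest wild-type sham value. After ischemia wild-type samples read 6229, 6012 and 7270 and SUMO-KD samples 3831, 4898 and 4363. The order was therefore SUMO-KD sham, wild-type sham, SUMO-KD ischemia and wild-type ischemia, with no overlap between neighbours.

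Group means of Arc were 1079 ± 224 (SD, n = 3) and 388 ± 75.3 in sham, and 6504 ± 672 and 4364 ± 534 after ischemia, wild-type first. Mean intensity after ischemia was 6.03 times the sham mean in wild-type and 11.2 times in SUMO-KD. On the log2 scale this was a difference of 2.57 (SE 0.17) in wild-type and of 3.40 (SE 0.17) in SUMO-KD. On the linear scale the gain was 5425 units in wild-type and 3976 in SUMO-KD, which is 73.3% of the wild-type gain. Which genotype shows the larger response of Arc thus turns on the scale.

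**Figure D1:**
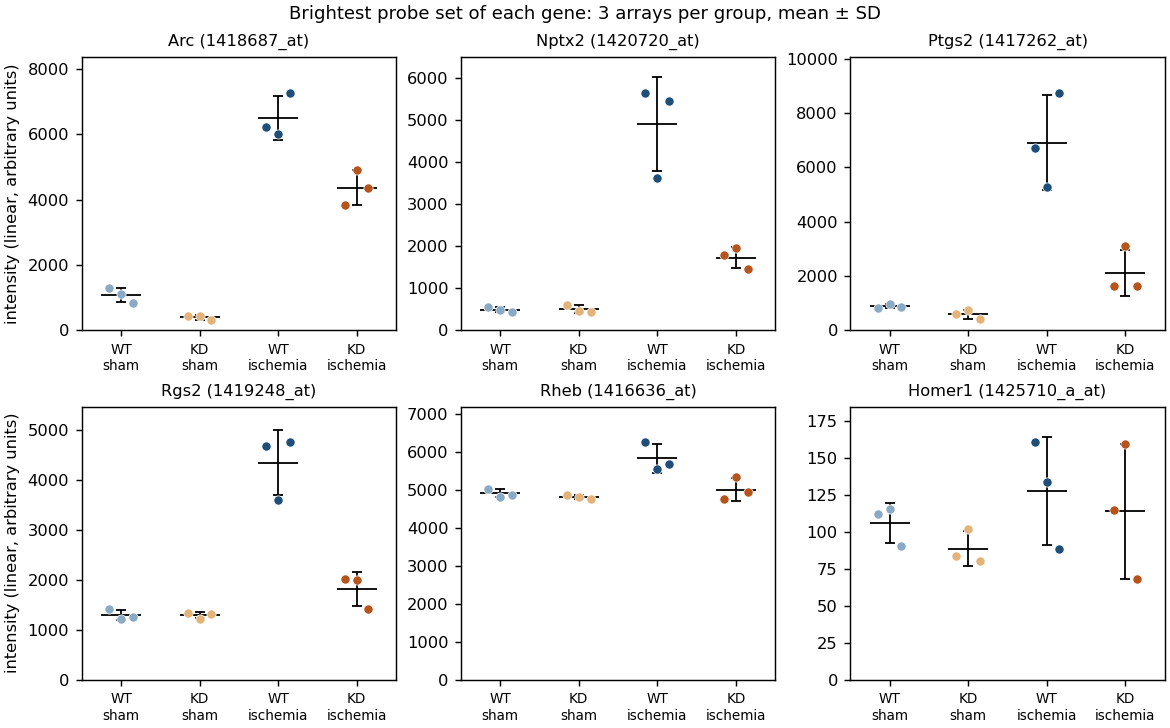
Intensity (linear, arbitrary units) of the brightest probe set of each of the 6 genes in the 12 arrays. Points are samples, horizontal lines group means and bars ± SD (n = 3). Arc separates all 4 groups, Nptx2, Ptgs2 and Rgs2 are highest in wild-type ischemia, and the groups of Homer1 overlap.

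Arc was lower in SUMO-KD than in wild-type already without ischemia. The sham difference was -1.40 (SE 0.17) on the log2 scale, or 0.38-fold, with an adjusted p of 0.00225 (limma, Benjamini-Hochberg over all probe sets). It was the only one of the 11 probe sets called for genotype in sham tissue, where 0.393% of all probe sets were called lower and 0.880% higher. Leaving out single arrays gave differences of -1.56 to -1.24 and adjusted p-values of 0.00271 to 0.0147. After ischemia the Arc difference was -0.57 (SE 0.17, 95% interval -0.96 to -0.19), with an unadjusted p of 0.00675 and an adjusted p of 0.175 that missed the threshold. The change of the Arc response with genotype, +0.82 (SE 0.25, 95% interval 0.28 to 1.36), had an unadjusted p of 0.00621 and an adjusted p of 0.672.

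Markers of some cell types moved with the sham difference of Arc. Among the CA1 markers, Wfs1, a membrane protein of the endoplasmic reticulum, was lower in SUMO-KD sham by a log2 difference of -0.87 (adjusted p 0.0212, limma). Man1a, a mannosidase of the Golgi, differed by -0.85 (adjusted p 0.0438) and Pou3f1, a transcription factor, by -0.88 (adjusted p 0.148). Summed markers of dentate granule cells (5 of 6 measured) were 5245 to 7146 in wild-type sham and 7455 to 9609 in SUMO-KD sham. Of these, Calb1, a calcium-binding protein, was higher in SUMO-KD sham by 0.61 (adjusted p 0.0134), from a mean of 3180 to one of 4889. Calb1 had the highest mean intensity of the 5 (3485 over all arrays), so the sum follows it most. The other 4 were not called and differed by 0.88 for Tdo2, 0.45 for Dsp, 0.35 for Prox1 and -0.04 for Lct. Summed excitatory neuron markers (4 of 5 measured) were 8146 to 10162 in wild-type sham and 4270 to 7017 in SUMO-KD sham, with none of the 4 called. The probe set of Camk2a among them was dim, with a mean intensity of 51. Summed inhibitory neuron markers (6 of 6) were 12443 to 13242 in wild-type sham and 11741 to 12139 in SUMO-KD sham, again with none called. Summed astrocyte markers (6 of 6) were 10079 to 11752 in wild-type sham and 12324 to 14156 in SUMO-KD sham. Of these, Aqp4, the water channel, was higher by 0.52 (adjusted p 0.0361), and no other was called. The others differed by 0.59 for Gfap, 0.42 for Slc1a3, 0.09 for Gja1, 0.04 for Slc1a2 and -0.05 for Aldh1l1. Sums of the CA3 and CA2, microglia, oligodendrocyte, endothelial and blood markers overlapped between the genotypes in sham, with none of these markers called. The part of the marker differences in the Arc result was not tested.

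**Figure D2:**
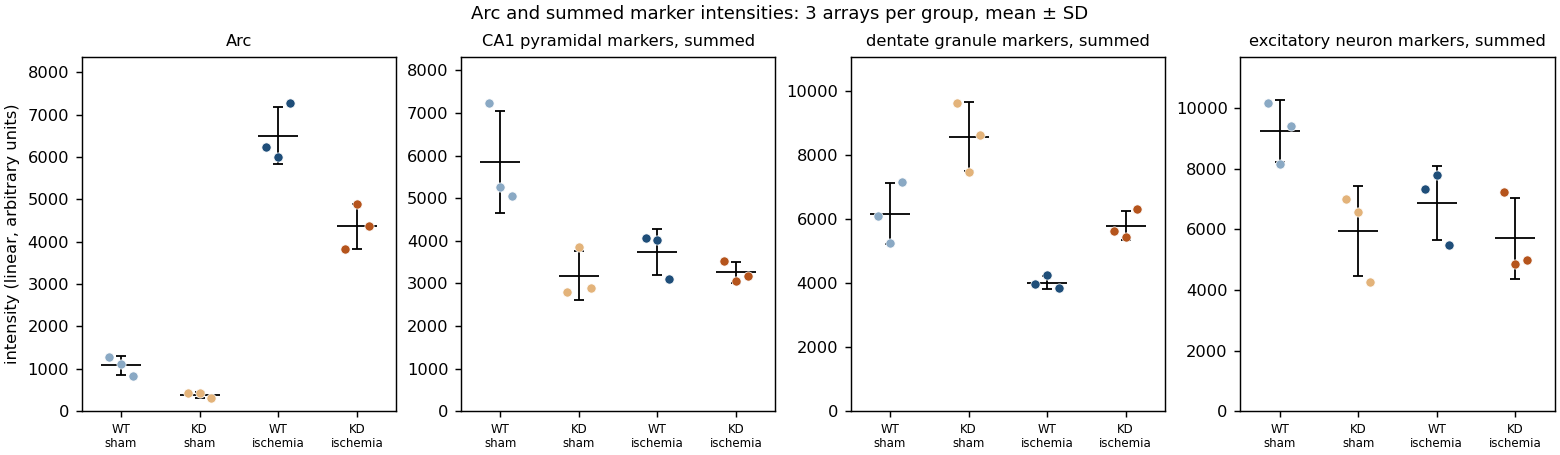
Intensity of Arc and summed intensities of markers of CA1 pyramidal cells, dentate granule cells and excitatory neurons (linear, arbitrary units) in the 12 arrays; points are samples, lines group means and bars ± SD (n = 3). In sham tissue Arc and the CA1 sum are lower in SUMO-KD than in wild-type without overlap, and the dentate sum is higher without overlap. Calb1 is the brightest of the summed dentate markers.

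Nptx2 values of the genotypes overlapped in sham tissue and lay apart after ischemia. Its brighter probe set, 1420720_at, for a gene at chr5:144545887-144557478, read 539, 483 and 430 in wild-type sham and 606, 454 and 436 in SUMO-KD sham, overlapping ranges. After ischemia it read 5641, 3609 and 5442 in wild-type and 1774, 1948 and 1451 in SUMO-KD. The lowest wild-type value after ischemia exceeded the highest SUMO-KD value, and all 6 exceeded every sham value. The ischemia mean was 10.1 times the sham mean in wild-type and 3.46 times in SUMO-KD, and the SUMO-KD gain of 1226 units was 27.8% of the wild-type gain of 4413.

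The log2 difference between SUMO-KD and wild-type after ischemia was -1.47 (SE 0.19, 95% interval -1.88 to -1.06, 0.361-fold). In sham the difference was 0.03 (SE 0.19, 95% interval -0.38 to 0.44, adjusted p 0.969). The difference between the responses, 3.23 in wild-type and 1.73 in SUMO-KD, was -1.50 (SE 0.26, 95% interval -2.08 to -0.93). The dimmer probe set, 1449960_at, read 26.9 to 62.0 in wild-type sham, 36.4 to 41.9 in SUMO-KD sham and after ischemia 104 to 221 in wild-type and 79.4 to 130 in SUMO-KD. Its genotype difference after ischemia was -0.63, with ranges that overlapped.

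Ptgs2 had its highest values in wild-type ischemia. The brighter probe set, 1417262_at, for a gene at chr1:150100031-150108234, read 811, 956 and 858 in wild-type sham and 578, 739 and 426 in SUMO-KD sham. After ischemia it read 6710, 5269 and 8757 in wild-type and 1630, 3091 and 1629 in SUMO-KD. SUMO-KD values lay below wild-type values without overlap under both surgeries. The ischemia mean was 7.90 times the sham mean in wild-type and 3.65 times in SUMO-KD, and the SUMO-KD gain was 25.4% of the wild-type gain.

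For Ptgs2 the log2 difference of SUMO-KD against wild-type was -1.73 after ischemia (SE 0.27, 95% interval -2.31 to -1.15, 0.302-fold). In sham the difference was -0.59 (SE 0.27, 95% interval -1.18 to -0.01, adjusted p 0.388). The responses, 2.91 in wild-type and 1.77 in SUMO-KD, differed by -1.13 (SE 0.38, 95% interval -1.96 to -0.31). The second probe set, 1417263_at, read 161 to 214 and 85.1 to 176 in sham and 383 to 1684 and 279 to 636 after ischemia, wild-type first. Its genotype difference was -0.38 in sham (adjusted p 0.802) and -1.03 after ischemia.

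Rgs2 was read by 2 probe sets, and on both the genotypes overlapped in sham and lay apart after ischemia, for a gene at chr1:143999338-144004149. Probe set 1419248_at read 1417, 1214 and 1258 in wild-type sham and 1342, 1221 and 1313 in SUMO-KD sham. After ischemia it read 4682, 3591 and 4749 in wild-type and 2019, 2000 and 1416 in SUMO-KD. Sham values of the genotypes overlapped, and every wild-type ischemia value exceeded every SUMO-KD ischemia value. The SUMO-KD ischemia values lay above the SUMO-KD sham values, but the lowest of them, 1416, was below the highest wild-type sham value. The SUMO-KD gain of 520 units was 17.1% of the wild-type gain of 3044.

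Probe set 1419247_at read 806, 619 and 788 in wild-type sham and 628, 705 and 675 in SUMO-KD sham. After ischemia it read 2956, 2556 and 3097 in wild-type and 1443, 1250 and 1015 in SUMO-KD, and the gain in SUMO-KD was 26.6% of that in wild-type. After ischemia Rgs2 was lower in SUMO-KD by -1.25 (SE 0.15, adjusted p 0.00241) and -1.20 (SE 0.14, adjusted p 0.00235) for the respective probe sets (limma). In sham the differences were 0.00 (95% interval -0.33 to 0.32) and -0.13 (adjusted p 0.797). The difference between the responses was -1.25 (SE 0.21, unadjusted p 8.56e-05, adjusted p 0.242) and -1.08 (SE 0.20, unadjusted p 0.000185, adjusted p 0.291). Those unadjusted p-values ranked 8 and 14 among 22626 probe sets. Rgs2 was chosen on ischemia against sham values from arrays that these comparisons share, and the p-values take no account of that. For 1419248_at the adjusted p of the response difference ran from 0.119 to 0.54 over omissions of single arrays and from 0.0906 to 0.382 over the other settings.

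**Figure D3:**
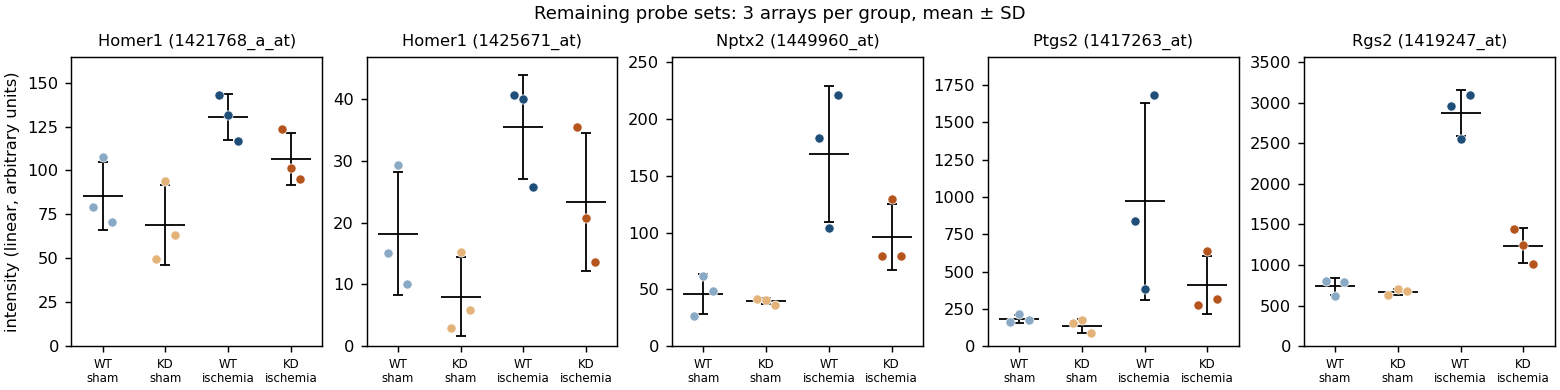
Intensity (linear, arbitrary units) of the dimmer probe sets of Homer1, Nptx2, Ptgs2 and Rgs2 in the 12 arrays; points are samples, lines group means and bars ± SD (n = 3). Rgs2 1419247_at separates the genotypes after ischemia, while the dim sets of Nptx2 and Ptgs2 overlap between genotypes after ischemia.

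Rheb read between 4762 and 6260 in all 12 arrays. Its probe set 1416636_at, for a gene at chr5:24802823-24842361, read 4826 to 5027 in wild-type sham and 4767 to 4882 in SUMO-KD sham. After ischemia it read 6260, 5561 and 5682 in wild-type and 4762, 5340 and 4942 in SUMO-KD. Wild-type ischemia values lay above all others, and the remaining 3 groups overlapped. The ischemia mean was 1.19 times the sham mean in wild-type and 1.04 times in SUMO-KD. The genotype difference after ischemia was -0.22 (SE 0.08, 95% interval -0.39 to -0.04, adjusted p 0.265), and in sham it was -0.03 (95% interval -0.20 to 0.15). The responses differed by -0.19 (adjusted p 0.905).

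Homer1, at chr13:93303757-93405129, was dim on its 3 probe sets, and the annotation does not say whether a set reads the long or the short form. Probe set 1425710_a_at read 112, 115 and 90.1 in wild-type sham and 161, 134 and 88.1 after ischemia. In SUMO-KD it read 83.4, 102 and 80.1 in sham and 115, 159 and 67.9 after ischemia, so that all 4 groups overlapped. Probe set 1421768_a_at read 70.4 to 107 in wild-type sham and 117 to 143 after ischemia, and 49.4 to 94.2 and 95.1 to 124 in SUMO-KD. Probe set 1425671_at read 3.0 to 40.7 over all arrays, around or below the offset of 32. Log2 differences between ischemia and sham for the 3 sets were 0.19, 0.48 and 0.44 in wild-type and 0.23, 0.48 and 0.46 in SUMO-KD. No genotype difference was called, with adjusted p-values of 0.524 to 0.804 in sham and 0.515 to 0.827 after ischemia.

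Over all 11 probe sets, SUMO-KD was below wild-type after ischemia in every one, and 4 were called lower (Nptx2, Ptgs2 and both sets of Rgs2), against 0.389% of all probe sets called lower and 0.592% higher. Nptx2 and Ptgs2 are counted here although their values after ischemia were known when the genes were chosen, and nothing is read from their calls. All 6 genes were chosen on values from arrays shared with this comparison, and several probe sets read the same gene. The counts and the median of the 11 are therefore a description. Both sets of Rgs2 were called in the same fit, and Ptgs2 left the count without wild-type ischemia replicate 1 or SUMO-KD ischemia replicate 1 or 3. The median log2 difference of the 11 was -0.63, beside -0.01 over all probe sets. The genotypes lay apart after ischemia, with SUMO-KD lower, for 6 of the 11 (the 4 called, Arc and Rheb), against 8.93% of all probe sets. In sham this held for 2 of the 11, Arc and Ptgs2 1417262_at, against 9.09%. Of the probe sets of all genes, 222 were called for genotype after ischemia with all arrays in the fit and 57 with the compared groups alone. In that smaller fit 2 of the 11 were called, and Rgs2 1419248_at (adjusted p 0.0579) and Ptgs2 were not.

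SUMO-KD ischemia replicate 2, the array with the high 18S reading, was the highest of its group for Arc, Nptx2 and Ptgs2. The same array had summed blood markers (4 of 5 measured) of 1148, beside 270 and 288 on replicates 1 and 3. This sum mostly follows S100a8 and S100a9, with SUMO-KD ischemia means of 332 and 184, beside 46 for Alas2 and 6 for Hba-a1. Without SUMO-KD ischemia replicate 2 the genotype differences after ischemia were -1.56 for Nptx2, -2.03 for Ptgs2 and -1.33 and -1.22 for Rgs2 (adjusted p 0.00795 and 0.0113, limma), and the count stayed at 4. Among the cell type markers after ischemia, Calb1 was higher in SUMO-KD by 0.86 (adjusted p 0.00235), from a mean of 2079 to one of 3793, and summed dentate markers were 3837 to 4234 in wild-type and 5444 to 6296 in SUMO-KD. The other dentate markers were not called and differed both ways, by -0.48 for Prox1, -0.05 for Dsp, 0.57 for Tdo2 and 0.20 for Lct. Summed oligodendrocyte markers (5 of 6 measured) were 28283 to 30672 in wild-type and 31754 to 33742 in SUMO-KD, also without overlap. Singly they differed both ways, by 0.42 for Cnp and 0.16 for Mbp, and by -0.14 for Mobp, -0.08 for Mag and -0.07 for Mog. None of the CA1, CA3 and CA2, excitatory, inhibitory, astrocyte, microglia, oligodendrocyte, endothelial or blood markers was called for genotype after ischemia. The part of Calb1 and of the oligodendrocyte sum in the results for Nptx2, Ptgs2 and Rgs2 was not tested.

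The direct test of whether the response to ischemia differed between genotypes called 0 of the 11 probe sets. At an unadjusted p under 0.05 there were 5 (Arc, Nptx2 1420720_at, Ptgs2 1417262_at and both of Rgs2), against 1342 or 5.93% of all probe sets. Over all probe sets, limma called 2 for this test (0.00884%), of Sox11 and Neurod1. Among these 5, the responses of Nptx2 and Ptgs2 were known at the choice of genes, and Arc was the one with a difference above 0. Arrays of this test also served the choice of all 6 genes, so its counts are a description. The comparisons share groups: the ischemia difference of genotype and the response difference both hold the 6 ischemia arrays, so their values for a gene are not separate evidence.

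**Figure D4:**
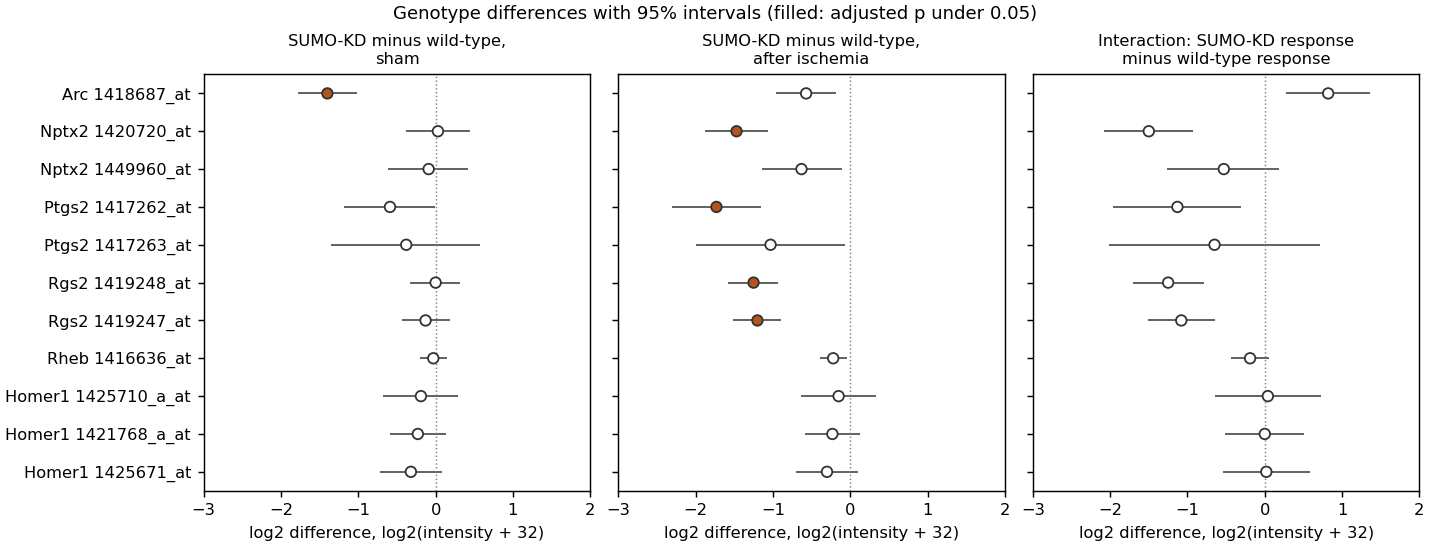
Log2 differences of log2(intensity + 32) with 95% intervals for the 11 probe sets: SUMO-KD minus wild-type in sham, the same after ischemia, and the difference between the responses. Filled points passed an adjusted p of 0.05: Arc in sham, and Nptx2 1420720_at, Ptgs2 1417262_at and both Rgs2 sets after ischemia. The Nptx2 and Ptgs2 values after ischemia are a description, since they were known when the genes were chosen.

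Of 39 other activity-regulated genes taken as a list, 29 were measured. This list and the gene lists below were chosen with earlier results of these data known. Their counts are therefore a description, and their p-values take no account of the choice. In wild-type 16 rose and 2 fell, beside 8.84% and 6.51% of all probe sets, and 11 were not called. In SUMO-KD 15 rose and 1 fell, beside 5.20% and 3.20%, and 13 were not called. The lists here and below read each gene through its brightest probe set, while the shares cover all probe sets. A fit with 1 probe set per gene called 1190 of 12393 higher and 1101 lower in wild-type, and 755 and 573 in SUMO-KD. The list had median log2 differences of 0.59 and 0.72, beside -0.02 and -0.01 over all probe sets. The falls were of Sorcs3 (-0.79) and the transcription factor gene Crem (-0.55) in wild-type and of Pcsk1 (-0.68) in SUMO-KD. Over omissions of single arrays the risers numbered 14 to 17 in wild-type and 13 to 16 in SUMO-KD. The largest rises in wild-type were those of Rrad, a small GTPase that limits calcium channels (3.13), Pim1, a survival kinase (2.49), and Cdkn1a, a cell cycle inhibitor (2.25). In SUMO-KD they were those of Gem, a GTPase related to Rrad (2.21), Ppp1r15a, a phosphatase subunit that reverses the block of translation under stress (2.06), and Rrad (1.77).

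By genotype, 1 of these other activity-regulated genes was higher and 1 lower in SUMO-KD sham, beside 0.880% and 0.393% of all probe sets. In sham, Pcsk1, a protease that cuts prohormones, was higher in SUMO-KD by 1.60 (adjusted p 0.000777, limma), and Plk2, a kinase of synaptic scaling, was lower by -0.59 (adjusted p 0.0311). After ischemia 3 of the 29 were lower in SUMO-KD, beside 0.389% of all probe sets: Inhba, the activin subunit (-2.07, adjusted p 0.00165), Pim1 (-1.65, adjusted p 0.00165) and Rrad (-0.83, adjusted p 0.0285). None was higher, and none was called for the difference between responses. With 1 probe set per gene, 186 of all 12393 were called higher and 74 lower in SUMO-KD sham, and 124 and 69 after ischemia. Plk2 lost its call without any 1 of 5 arrays, those of wild-type sham replicates 1 and 2, SUMO-KD sham replicates 1 and 3 and SUMO-KD ischemia replicate 3.

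**Figure D5:**
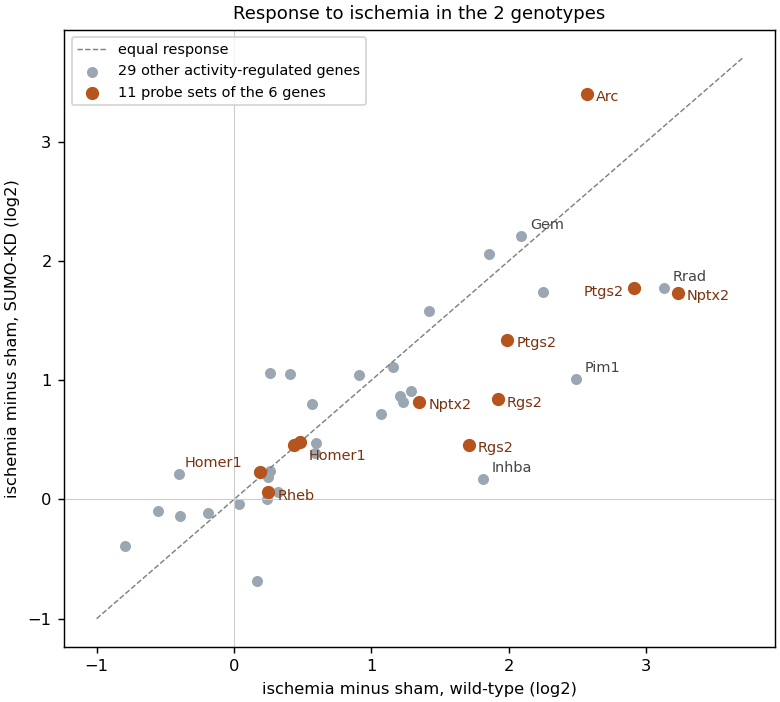
Log2 difference of ischemia against sham in wild-type (horizontal axis) and SUMO-KD (vertical axis) for the 11 probe sets of the 6 genes and 29 other activity-regulated genes; the dashed line marks equal responses. Arc lies above the line (2.57 and 3.40), while Nptx2 (3.23 and 1.73), Ptgs2 and Rgs2 lie below it, and the Homer1 sets lie close to it.

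In the lists of genes that work with the members, counts for ischemia are to be read beside the shares of all probe sets called, 8.84% higher and 6.51% lower in wild-type and 5.20% and 3.20% in SUMO-KD. Of 17 measured Arc partners, which include AMPA receptor subunits and endocytic adaptors, 0 were called in wild-type ischemia (limma). Measured means only that a probe set listed the gene alone. The sets of Camk2a (mean intensity 51), Grin2b (53) and Dnm3 (75) were dim. In SUMO-KD, Notch1, a receptor that Arc is known to help activate, fell by 0.38, and after ischemia it was lower in SUMO-KD by -0.59 (adjusted p 0.0201). Of 8 measured Homer1 partners, the scaffold gene Shank3 fell by 0.35 and 0.41 in wild-type and SUMO-KD, while the channel gene Trpc1 rose by 0.37 in SUMO-KD. Homer2 and Homer3 had differences of -0.02 and -0.05 in wild-type and of 0.02 and -0.03 in SUMO-KD. Of 9 measured Nptx2 partners, C1ql3, a secreted synaptic organiser, fell by 0.69 and 0.55, wild-type first, and Nptx1, the constitutive relative of Nptx2, differed by -0.16 and -0.27 (adjusted p 0.361 and 0.138). Median differences were -0.13 and -0.06 for the Arc partners, -0.24 and -0.01 for the Homer1 partners and -0.22 and -0.17 for the Nptx2 partners, wild-type first. The genotype call of Notch1 was lost without any 1 of the ischemia arrays other than SUMO-KD replicate 3. The calls for ischemia in SUMO-KD in these 3 lists, and that of Shank3 in wild-type, were each lost on omission of at least 1 array.

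Of 24 measured genes of the Rgs family and Gq signalling, 3 rose in wild-type: Rgs16 (1.05), Rgs4 (0.91) and Rgs20 (0.46), all of which shut off G protein signals. Rgs19 fell by 0.43, and the counts of 3 and 1 stand beside those shares. In SUMO-KD, Rgs4 (1.04) and Rgs8 (0.33) rose. Median differences of the list were -0.04 in wild-type and 0.06 in SUMO-KD. Rgs8 was lower in SUMO-KD sham by -0.55 (adjusted p 0.0151), a call lost without wild-type sham replicate 1 or any SUMO-KD sham array, and none was called for genotype after ischemia. The wild-type count of 3 dropped to 1 when a single array was left out, namely any SUMO-KD ischemia array, SUMO-KD sham replicate 2, wild-type sham replicate 1 or 2, or replicate 3 of wild-type ischemia.

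In prostaglandin synthesis and signalling, 18 of 23 listed genes were measured, with median differences of 0.08 in wild-type and -0.10 in SUMO-KD. Many of these genes were dim, so the medians say little about them. Mean intensities over all arrays were 3 for Ptger1, 15 for Ptgir, 34 for Ptger3 and 81 for Alox12b. The receptor gene Ptger4 rose by 1.71 in wild-type mice and 1.26 in SUMO-KD mice. Pla2g4a, the phospholipase that releases the substrate of Ptgs2, rose by 0.65 in wild-type, as did the receptor gene Ptger3, by 0.63. Hpgd, which inactivates prostaglandins, fell by 0.92 and 0.78, wild-type first, and the lipoxygenase gene Alox12b fell by 1.19 in wild-type. After ischemia Pla2g4a was lower in SUMO-KD by -0.98 (adjusted p 0.0162, limma), a call lost without wild-type ischemia replicate 1 or SUMO-KD ischemia replicate 1 or 3, and Alox12b was higher by 1.40 (adjusted p 0.0075).

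In the Rheb and mTORC1 list, 26 of 31 genes were measured, with medians of -0.06 in wild-type and -0.09 in SUMO-KD. Eif4ebp1, which holds back translation until mTORC1 phosphorylates it, rose by 1.88 and 1.46 in the respective genotypes. The mTORC1 inhibitors Sesn2 (1.56 and 1.44) and Ddit4 (0.67 and 0.55) rose in both. Tsc1, a subunit of the complex that inactivates Rheb, fell by 0.48 in wild-type, with Lamtor2 (-0.47) and Flcn (-0.37). In SUMO-KD, Flcn fell by 0.61 and Nf1 by 0.44. The 3 falls in wild-type became 1 without wild-type sham replicate 1 or 3 or wild-type ischemia replicate 1, and the 2 in SUMO-KD became 1 without SUMO-KD sham or ischemia replicate 2. No gene of this list was called for genotype under either surgery.

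The genes most like each member over the 12 arrays were found by Pearson r of log2(intensity + 32), among 7858 genes with a mean intensity of at least 100. Sham and ischemia arrays form separate sets, so r follows the surgery for any gene that differs with it, and no test was made. Arc was nearest to Med10 (0.988), Rasl11b (0.986) and Ptpn1 (0.985). Nptx2 was nearest to Etv3 (0.984), Ppp1r15b (0.983) and Nifk (0.981), and Ptgs2 to Spry2 (0.987), Phf13 (0.984) and Nab1 (0.983). Rgs2 had lower values, with Jarid2 (0.966), Dyrk3 (0.964) and Acan (0.961) nearest. Rheb was nearest to Yy1 (0.936), Tcf12 (0.924) and Twf2 (0.922), and Homer1, the dimmest, to Dnajb9 (0.867), Cdk12 (0.851) and Map3k11 (0.845).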

How the data were processed

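The authors deposited 1 linear intensity per probe set and array for 12 arrays. Partek 6.6 and RMA are named in the submitters' processing notes, with no role stated. The values are not on the log2 scale of RMA output, and the mean of each array, trimmed by 2% at both ends, is 500.2. Which step made them is not stated in the sources used here.

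Of 22690 probe sets, 64 controls were left out and 22626 tested. In the platform annotation 20380 list 1 gene symbol, 691 several and 1619, controls included, none. Entrez identifiers of 20351 were found in the reference gene table, which gave the positions. The means of 4 groups of 3 samples were fitted to log2(intensity + 32) with limma 3.58.1 (lmFit, eBayes; R 4.3.3; two-sided, Benjamini-Hochberg over all probe sets, called at an adjusted p under 0.05). The steps were tested on simulated data. The number of arrays limits the precision.

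The members, the gene lists and the offset of 32 were chosen with earlier results of these data known, among them ischemia values of Nptx2 and Ptgs2 in both genotypes. The text names every member probe set, and of each list up to 3 called genes per comparison, by size of change, each through its brightest probe set. A few others, such as Homer2, Homer3 and Nptx1 as relatives of members, are named outside this rule. Alternatives were other offsets, 1 probe set per gene, removal of probe sets with a mean intensity under 100, quantile normalization, centring on the median, a replicate block, the compared groups alone, trend and robust eBayes, array weights and omission of each array.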

Additional observations from a re-analysis of the deposited data

How the results depend on the processing

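Over 11 other settings and omission of each of the 12 arrays, Arc in sham stayed called lower in SUMO-KD (log2 difference -1.56 to -1.24), and Nptx2 1420720_at after ischemia ran from -1.68 to -1.35. The number of the 11 probe sets called changed by over 1.5 times in these cases: for ischemia in wild-type it was 4 in place of 7 with 1 probe set per gene, which leaves 6 members, and for genotype after ischemia it was 2 in place of 4 with the compared groups alone. As counts only, omission of single arrays gave 7 to 8 and 4 to 6 for ischemia in wild-type and SUMO-KD, 1 for genotype in sham, 3 to 4 for genotype after ischemia and 0 for the difference between responses. Values near 0 changed sign. Homer1 1425710_a_at had a response difference of -0.19 with array weights and -0.18 to 0.29 over omissions, and a genotype difference after ischemia of -0.37 to 0.10 over omissions. In sham, Nptx2 1420720_at differed by 0 after quantile normalization, by -0.02 with array weights and by -0.11 to 0.12 over omissions, and Rgs2 1419248_at by -0.05 to 0.06 over omissions. The causes were not tested. No scaling moved the median of all probe sets by over 0.1.

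Deviations of samples with the same replicate number correlated weakly (r -0.20 to 0.33 over 18 pairs of arrays, median 0.10). Pairs with different numbers gave -0.46 to 0.40 (36 pairs, median -0.05), and the numbers were not taken as pairs. The 3′ to 5′ ratio of the beta-actin control fell from replicate 1 to replicate 3 in every group. For sham and ischemia it went from 1.68 to 1.54 and 1.72 to 1.54 in wild-type. In SUMO-KD it went from 1.74 to 1.42 and 1.66 to 1.43. The Gapdh ratio fell too, except in wild-type sham (0.81 on both). Whether arrays of the same number shared a processing step was not tested. With the replicate block, 7, 4, 1, 4 and 0 of the 11 probe sets were called for the 5 comparisons, and after ischemia the adjusted p was 0.00606 for Rgs2 1419248_at. The 12 pairs of arrays within groups correlated at 0.9853 to 0.9928, and 0 were identical. Probe sets under an intensity of 32, among them most Homer1 1425671_at values, have log2 differences compressed by the offset.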
